A study of Mus musculus with 2 samples.

Results

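The chemokine ligands and their receptors were examined in mouse liver, as all genes with a single-symbol probe set whose symbol begins with Ccl, Ccr, Cxcl, Cxcr, Cx3cl, Cx3cr or Ackr followed by a digit. This rule found 52 genes, 32 ligands and 20 receptors, among 18193 genes, and 84 probe sets read them. One Affymetrix array held liver RNA of Bglu3 congenic mice, which the labels give as hyperglycemic and of C57BL/6 strain, and 1 array held liver RNA of hyperglycemic C57BL/6 apoE-/- mice, the controls. Bglu3 is a blood glucose locus on mouse chromosome 1, and congenic mice hold a donor stretch of a chromosome within the background of another strain. All mice ate chow from weaning at 3 weeks, and a Western diet began at 6 weeks and lasted 12 weeks. The labels state neither the donor strain, nor the ends of the donor stretch, nor the apoE genotype of the congenic mice, nor the sex and number of mice behind an array. Apolipoprotein E clears remnant lipoproteins, and mice without it become hypercholesterolaemic, so the controls are themselves a disease model.

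Chemokines are small secreted proteins that guide leukocytes along concentration gradients, and they are sorted into CC, CXC and CX3C families by the spacing of their first cysteines. They act through G protein-coupled receptors on the migrating cells, whereas the atypical receptors of the Ackr group bind chemokines without this coupling and scavenge or transport them. In liver, hepatocytes, Kupffer cells, stellate cells and sinusoidal endothelium all make chemokines, and the leukocytes that enter bring their own ligands and receptors.

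With 1 array in each group there were no replicates, no standard error and no test, and every difference below describes these 2 arrays. A gene was read by its brightest probe set, and it counted as expressed when that probe set reached the 50th percentile of all probe sets on either array or both (19.3 for congenic and 19.7 for control liver). Differences are log2(intensity + 5) of the congenic minus the control array, so a positive value is higher in the congenic array, and the pseudocount of 5 shrinks the differences of dim genes. As a measure of scatter between probe sets, expressed probe sets of the same gene disagreed with an SD of 0.34 in this log2 difference. This SD comes from the same 2 arrays and does not measure scatter between RNA samples or mice. By brightest probe set, hepatocyte markers lay between -0.26 (Hnf4a) and 0.14 (Fga) in all 9 measured genes. The lowest of the 4 expressed probe sets of Hnf4a differed by -0.59, past 1.5-fold. Albumin (Alb) read 14121 in congenic and 12909.6 in control liver.

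Of the 52 members, 37 were expressed. In the congenic array 8 of these (21.6%) were higher by 1.5-fold or more, against 7.47% of all 12614 expressed genes, and 4 (10.8%) were lower by that much, against 5.23% of all genes. By 2-fold or more, 5 members were higher, against 1.91% of all genes, and 1 was lower, against 1.45%. The median difference of the expressed members was 0.04, the same as the median of all expressed genes. Ligands had a median of 0.08 over 25 expressed genes and receptors a median of 0.02 over 12. The higher members were Cxcl13, Ccl8, Ackr1, Cxcl14, Ccr2, Cxcl16, Ccl5 and Ccl6, and the lower ones were Cxcl1, Ccl7, Cxcl2 and Cxcl10. Of the 37 expressed members, 34 reached the expression limit on both arrays, and of these 6 were higher and 4 lower, beside 5.68% and 3.30% of the 11584 genes that did so. Ccl8 and Cxcl14 reached it on the congenic array alone, where they were high, and Ccl22 on the control array alone. Of the 37 expressed members, 18 differed by less than the scatter of 0.34 between probe sets of a gene.

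**Figure D1:**
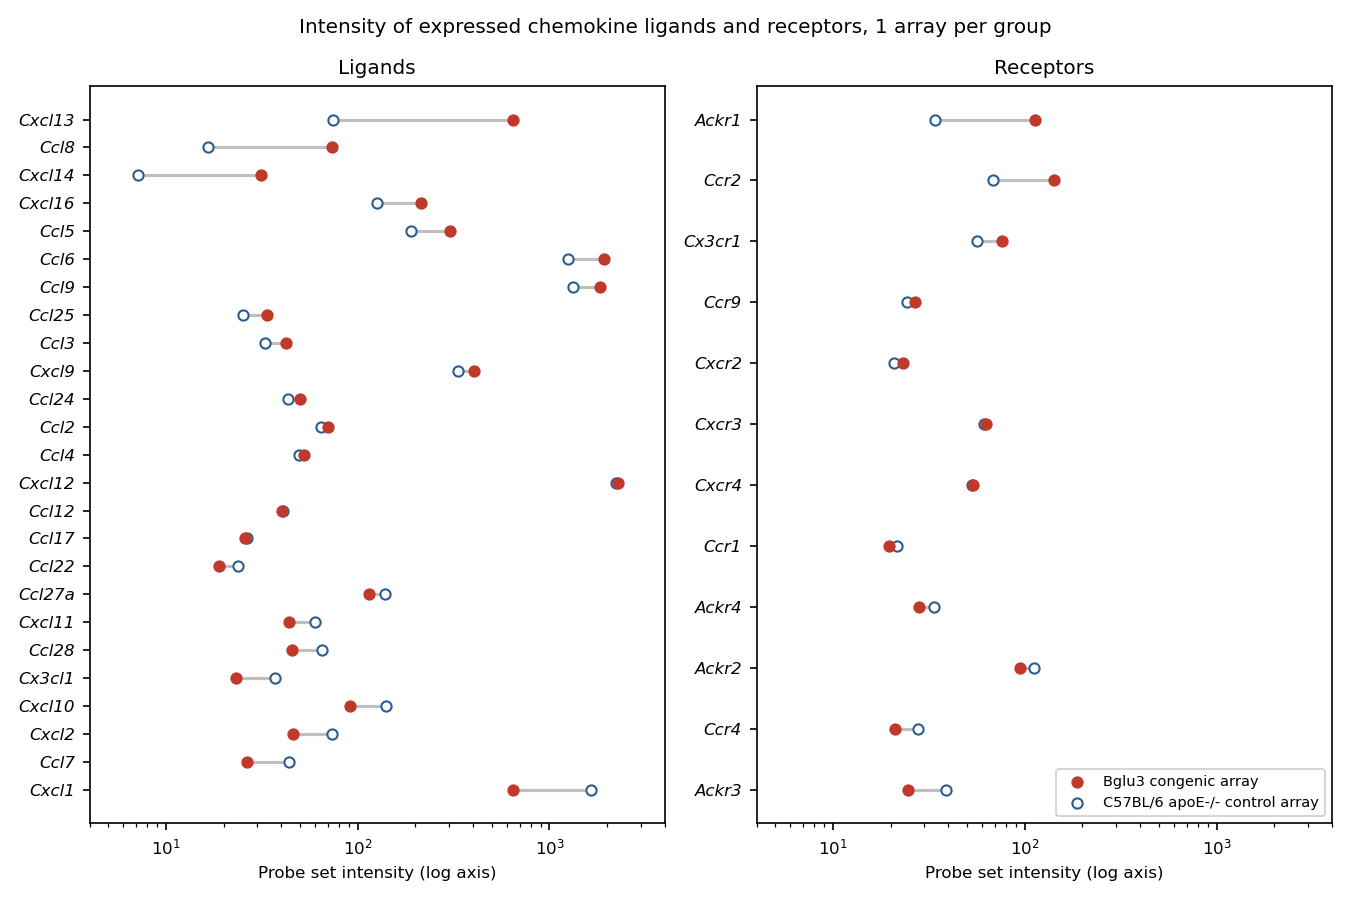
Probe set intensity (log axis) of the 25 expressed ligands and 12 expressed receptors, ordered by difference, with filled points for the Bglu3 congenic array and open points for the C57BL/6 apoE-/- control array. Each point is 1 array and has no error bar. Cxcl13 has the widest gap to the right, with 643 in congenic and 74.3 in control liver, and Cxcl1 the widest to the left, with 646 in congenic and 1644 in control liver.

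Among the homeostatic and lymphoid ligands, which place lymphocytes in tissues in the resting state, 1 of 5 expressed genes was higher and none lower. Cxcl13, the ligand that draws B cells into follicles and that follicular stromal cells and some macrophages make, read 643 in congenic and 74.3 in control liver with probe set 1417851_at. Its second probe set, 1448859_at, read 352 in congenic and 41.3 in control liver, so both gave log2 differences close to 3 (3.03 and 2.95). Cxcl13 ranked 5 from the top among the 12614 expressed genes. By contrast, Cxcl12, the stromal ligand that retains haematopoietic cells, was level, at 2265 in congenic and 2209.8 in control liver (log2 difference 0.04), and its other expressed probe set differed by 0.10. Ccl28, an epithelial ligand, read 45.6 in congenic and 65.1 in control liver (-0.47). Ccl27a, known from skin, read 114 in congenic and 138 in control liver (-0.27). Ccl25, which guides cells to thymus and gut, read 33.7 in congenic and 25.3 in control liver (0.36). The second expressed probe set of Ccl25 went the other way (-0.38), so its direction was not settled. RNA of whole liver was measured, so fewer cells of a type and less RNA per cell cannot be told apart here or in what follows.

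The neutrophil-attracting CXC ligands, which act on Cxcr2, were lower in both members that were expressed. Cxcl1, which hepatocytes and endothelium release in inflammation, was read by 3 probe sets, all expressed and all lower. Probe set 1457644_s_at gave 646 in congenic and 1644 in control liver, 1419209_at gave 566 in congenic and 1439 in control liver, and 1441855_x_at gave 490 in congenic and 1149 in control liver. The log2 differences were -1.34, -1.34 and -1.22, and Cxcl1 ranked 68 from the bottom of the 12614 expressed genes. Cxcl2, which macrophages make, read 46.2 in congenic and 73.7 in control liver (-0.62, and -0.50 with a pseudocount of 20, within 1.5-fold). The remaining members of this group were below the expression limit on both arrays. Cxcl3 read 17.9 in congenic and 18.9 in control liver, Cxcl5 read 1 in congenic and 4.07 in control liver, and Cxcl15, a lung ligand, 4.78 in congenic and 13.0 in control liver.

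Neutrophil markers stood on the other side. All 11 measured markers were expressed, 9 of them were higher by 1.5-fold or more and none was lower. Their summed intensity was 12859 in congenic and 5205 in control liver. Most of both sums came from Lcn2 alone, at 8590 in congenic and 3853 in control liver (1.16), so the sums mainly follow this gene. The markers ranged from Csf3r, a granulocyte growth factor receptor (0.01), to Camp, a granule peptide (3.78). No marker of this list was at the repeated low value of 1. Camp, Ltf, Mpo and Prtn3 counted as expressed through the congenic array alone, with control readings from 6.35 to 16.6, and of the 7 markers that reached the limit on both arrays 5 were higher and 0 lower. Cxcr2, the neutrophil receptor for Cxcl1 and Cxcl2, lay just above the expression limit, at 23.1 in congenic and 20.9 in control liver (0.12). The part of these markers in the Cxcl1 and Cxcl2 values was not tested.

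Sequence upstream of Cxcl1 and Cxcl2 is shown with that of Cxcl10, the third lower member with an entry, and of Cxcl13 and Ccl8, the 2 members with the largest positive differences, so that the motif matches given next can be read in place. Each line runs 5′ to 3′ from 250 bases before to 50 bases after the start of the gene, from RefSeq on build GRCm38.p6, the C57BL/6J reference, and is not a sequence of these mice. Capitals mark matches of any of 4 motifs searched on both strands: GGG and TTCC with any 3 bases between them for NF-kB, 2 GAAA blocks with any 2 bases between them for the interferon-stimulated response element, TTCNNNGAA for STAT factors and TATAAA for the TATA box. The windows lie at chr5:90890995-90891294 on the plus strand for Cxcl1, chr5:90903649-90903948 on the plus strand for Cxcl2, chr5:92348840-92349139 on the minus strand for Cxcl10, chr5:95956689-95956988 on the plus strand for Cxcl13 and chr11:82114935-82115234 on the plus strand for Ccl8.
Cxcl1: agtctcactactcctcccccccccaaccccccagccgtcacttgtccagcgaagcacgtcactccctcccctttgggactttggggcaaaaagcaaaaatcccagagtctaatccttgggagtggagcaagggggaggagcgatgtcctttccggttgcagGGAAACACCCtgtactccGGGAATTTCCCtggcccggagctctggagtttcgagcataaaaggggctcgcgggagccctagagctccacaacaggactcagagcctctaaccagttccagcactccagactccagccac
Cxcl2: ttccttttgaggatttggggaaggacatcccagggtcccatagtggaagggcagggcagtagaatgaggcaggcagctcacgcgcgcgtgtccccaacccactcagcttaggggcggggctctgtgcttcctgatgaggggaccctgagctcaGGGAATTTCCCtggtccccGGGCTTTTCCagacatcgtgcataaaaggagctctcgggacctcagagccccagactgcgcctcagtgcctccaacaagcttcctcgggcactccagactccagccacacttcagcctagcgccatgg
Cxcl10: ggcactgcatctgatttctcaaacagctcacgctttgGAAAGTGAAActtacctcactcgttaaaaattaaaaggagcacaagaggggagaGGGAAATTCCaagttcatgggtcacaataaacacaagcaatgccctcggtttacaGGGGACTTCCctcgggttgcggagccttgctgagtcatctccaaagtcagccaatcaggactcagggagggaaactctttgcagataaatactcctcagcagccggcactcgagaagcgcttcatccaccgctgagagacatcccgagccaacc
Cxcl13: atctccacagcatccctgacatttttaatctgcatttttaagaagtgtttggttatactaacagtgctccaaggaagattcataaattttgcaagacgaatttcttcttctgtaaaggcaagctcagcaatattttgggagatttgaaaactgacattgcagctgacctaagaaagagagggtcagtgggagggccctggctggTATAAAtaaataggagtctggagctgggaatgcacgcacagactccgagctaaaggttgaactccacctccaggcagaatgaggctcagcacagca
Ccl8: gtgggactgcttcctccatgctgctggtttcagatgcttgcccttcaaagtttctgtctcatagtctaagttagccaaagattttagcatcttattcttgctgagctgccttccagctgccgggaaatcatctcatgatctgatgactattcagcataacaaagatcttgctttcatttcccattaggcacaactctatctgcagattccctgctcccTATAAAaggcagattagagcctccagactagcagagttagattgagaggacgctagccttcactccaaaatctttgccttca

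NF-kB is a transcription factor that inflammatory signals release to the nucleus, and Cxcl1, Cxcl2 and Cxcl10 are known targets of it. The Cxcl1 window held GGGAATTTCC beginning 71 bases before the start and, overlapping it on the other strand, the same motif 1 base further on, plus a separate match beginning 89 bases before the start. In the Cxcl2 window GGGAATTTCC began 97 bases before the start, again with an overlapping match on the other strand, and GGGCTTTTCC began at 78. Cxcl10 had matches beginning at 159 and 104 bases and, at 213 bases, the interferon motif GAAAGTGAAA. The Cxcl13 and Ccl8 windows matched TATAAA alone, beginning at 46 and 32 bases before the start. Of the lower members, 3 had a promoter entry and 3 matched the NF-kB letters, as did 0 of the 6 higher members with an entry. Ccl7 among the lower and Ccl5 and Cxcl16 among the higher members had none. Both groups were picked by their values here, and Cxcl1 and Cxcl2 are neighbours that share GGGAATTTCC, so nothing is concluded from this contrast. Over the 33 windows of expressed members, 4 (12.1%) held the NF-kB letters. Over all 32851 promoter windows of this length 5.56% held the NF-kB letters, 3.44% the interferon letters, 8.30% the STAT letters and 13.6% TATAAA. Over the 43 windows of the 39 members with an entry, 9 windows (20.9%) held the NF-kB letters, among them Cxcl3, Ccl1 and Ccl20, which were not expressed, and Ccl9, which was within 1.5-fold. A match is a run of letters and not a measured binding site.

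The interferon-inducible CXC ligands, which call Cxcr3-bearing T and NK cells, did not move together. Cxcl10 read 90.8 in congenic and 140 in control liver (-0.60), and this difference was within 1.5-fold after median centring (-0.58) and with a pseudocount of 20 (-0.53). Cxcl11 read 43.9 in congenic and 60.0 in control liver (-0.41). Cxcl9, which interferon gamma induces, read 404 in congenic and 332 in control liver (0.28), and its second probe set differed by -0.06. Their receptor Cxcr3 was level, at 63.2 in congenic and 61.4 in control liver (0.04). T and NK cell markers were higher in 5 of 9 expressed genes and lower in 1, from Cd247, a signalling chain of the T cell receptor (-0.73), to Nkg7, a granule protein of cytotoxic cells (1.05), with a summed intensity of 437 in congenic and 319 in control liver. Among the 8 at or above the limit on both arrays 4 were higher and 1 lower.

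All 6 expressed members of the inflammatory CC ligands, which draw monocytes, T cells and eosinophils, had a positive difference, 2 of 6 by 1.5-fold or more. Of all 12614 expressed genes, 7078 had a positive difference. Ccl3, Ccl24 and Ccl4 differed by less than the probe set scatter of 0.34. Ccl5, which T cells, NK cells and platelets release, read 303 in congenic and 190.0 in control liver (0.66). Ccl6, a myeloid ligand found in rodents, read 1921 in congenic and 1248 in control liver (0.62), with its second probe set at 0.60. Ccl9, its close relative, read 1823 in congenic and 1325 in control liver (0.46), and the other probe set gave 1350.1 in congenic and 923 in control liver (0.55). Ccl3 and Ccl4, the macrophage inflammatory proteins, differed by 0.32 and 0.08, with Ccl3 at 42.3 in congenic and 32.8 in control liver and Ccl4 at 52.4 in congenic and 49.2 in control liver. Ccl24, an eosinophil attractant, read 49.8 in congenic and 43.3 in control liver (0.18), and Ccl11, the eotaxin, was not expressed, at 7.01 in congenic and 6.86 in control liver. Kupffer cell markers had positive differences in all 11 measured genes and were higher by 1.5-fold or more in 8, from Cd5l (0.19) to the scavenger receptor Marco (1.85). Their summed intensity was 29420.2 in congenic and 18904 in control liver, and their part in the Ccl6, Ccl9 and Cxcl13 values was not tested.

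Of the monocyte-attracting ligands, which act on Ccr2, 1 of 3 was lower and none higher. Ccl2, the main monocyte chemoattractant, read 70.1 in congenic and 64.7 in control liver (0.11), and Ccl12, its mouse relative, read 40.2 in congenic and 41.0 in control liver (-0.02). Ccl7 read 26.5 in congenic and 43.6 in control liver (-0.62, and -0.45 with a pseudocount of 20). Ccl8, which lies beside Ccl12 and in mice acts on Ccr8, read 73.8 in congenic and 16.7 in control liver (1.86), ranked 40 from the top of all expressed genes, and was below the expression limit in the control array. It has 1 probe set here, so no second reading was available.

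Among the remaining ligands, Cxcl14, a homeostatic ligand of epithelium, read 31.3 in congenic and 7.18 in control liver (1.58). Its value rests on a control reading far below the expression limit, and the difference was 0.92 with a pseudocount of 20 and 1.98 with 1. A second probe set of Cxcl14 read 18.9 in congenic and 13.1 in control liver, below the limit on both. Cxcl16, a membrane-bound ligand that also takes up oxidised lipoprotein, read 214 in congenic and 127 in control liver (0.73) with probe set 1449195_s_at. Its other probe set gave 184 in congenic and 136 in control liver (0.42), within 1.5-fold. Cx3cl1, fractalkine, read 23.2 in congenic and 37.2 in control liver (-0.58), just short of 1.5-fold. The Ccr4 ligands Ccl17 and Ccl22 read 25.8 and 19.0 in congenic and 26.5 and 23.7 in control liver, with differences of -0.03 and -0.26. Ccl20 and Cxcl17 stood at the repeated low value of 1 on both arrays, and Ccl1 was not expressed, at 8.14 in congenic and 17.2 in control liver.

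**Figure D2:**
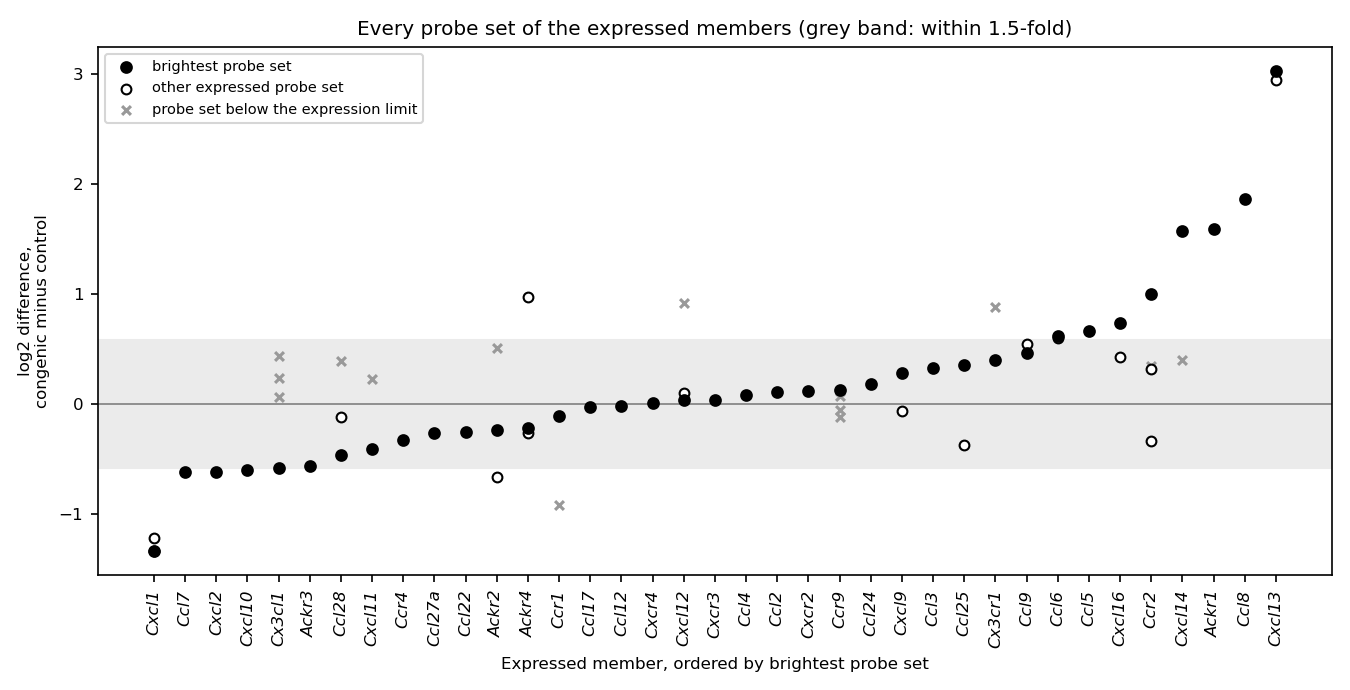
The log2 difference, congenic minus control, of every probe set of the 37 expressed members, with filled points for the brightest probe set, open points for other expressed probe sets and crosses for those below the expression limit. The grey band is 1.5-fold. The Cxcl13 probe sets lie at 2.95 and 3.03 and the Cxcl1 probe sets from -1.34 to -1.22, while those of Ccr2 run from -0.34 to 1.001.

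Of the 12 members with several expressed probe sets, 8 had all of them on the same side of 0, which is 66.7%, compared with 52.3% of the 5195 such genes on the arrays. The members that disagreed were Ackr4, Ccl25, Ccr2 and Cxcl9. Probe sets of a gene read the same RNA, so their agreement says nothing about other mice.

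Classical receptors were mostly dim and mostly level. Of 16 classical receptor genes 8 were expressed, and 1 of these, Ccr2, was higher by 1.5-fold or more. Ccr2, which brings monocytes out of the marrow, read 142 in congenic and 68.3 in control liver with its brightest probe set, 1421188_at (1.001). Its other expressed probe sets gave 59.9 in congenic and 47.0 in control liver (0.32) and 22.3 in congenic and 29.5 in control liver (-0.34). The mean over the 3 was 0.33, within 1.5-fold, so the call on Ccr2 depends on the probe set. Markers of monocytes and recruited macrophages were higher in 2 of 8 expressed genes and lower in 1, between Gpnmb, of lipid-laden macrophages (-1.20), and Chil3 (2.02), with a summed intensity of 8689 in congenic and 6807 in control liver.

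Cx3cr1, the fractalkine receptor of monocytes and macrophages, read 75.9 in congenic and 56.5 in control liver (0.40). Cxcr4, the receptor of Cxcl12, was as level as its ligand, at 53.5 in congenic and 53.0 in control liver (0.01). Ccr9, the receptor of Ccl25, read 26.9 in congenic and 24.3 in control liver (0.12). Ccr4, the receptor of Ccl17 and Ccl22, read 21.0 in congenic and 27.7 in control liver (-0.33). Ccr1 read 19.7 in congenic and 21.6 in control liver (-0.11). The receptors of Cxcl13 and Ccl8 were not expressed by this limit. Cxcr5, the Cxcl13 receptor of B cells, read 14.2 in congenic and 14.5 in control liver, and Ccr8 read 6.39 in congenic and 8.28 in control liver. Cxcr6, the receptor of Cxcl16, read 15.6 in congenic and 16.9 in control liver with its brightest probe set, below the limit on both. Its slightly dimmer second probe set read 12.1 in congenic and 21.0 in control liver, above the limit on the control array alone (-0.61, past 1.5-fold). Ccr3, Ccr6, Ccr7, Ccr10 and Ccr1l1 were also not expressed, with intensities from 1.39 to 11.3 in congenic and from 1 to 8.09 in control liver. B and plasma cell markers were higher by 1.5-fold or more in 6 of 9 expressed genes and lower in 1, from Cd22, an inhibitory receptor (-0.66), to Jchain (2.87), with a summed intensity of 1428 in congenic and 690 in control liver. Among the 7 that reached the limit on both arrays 4 were higher and 1 lower. Their part in the Cxcl13 value was not tested.

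All 4 atypical receptors were expressed, and 1 was higher. Ackr1, the Duffy antigen receptor, which venular endothelium and erythroid cells carry and which binds many inflammatory CC and CXC ligands, read 112 in congenic and 34.0 in control liver (1.59). It ranked 68 from the top of the 12614 expressed genes and has 1 probe set here. Ackr3, which scavenges Cxcl12, read 24.7 in congenic and 39.0 in control liver (-0.56). Ackr2, a decoy for inflammatory CC ligands, read 94.1 in congenic and 112 in control liver (-0.24). Ackr4, which scavenges Ccl19, Ccl21 and Ccl25, read 28.2 in congenic and 33.7 in control liver (-0.22). A dimmer probe set of Ackr2 read 17.1 in congenic and 30.2 in control liver (-0.67), past 1.5-fold. The other expressed probe sets of Ackr4 differed by -0.27 and 0.97, so its direction was not settled. Erythroid markers were higher in 1 of 6 expressed genes and lower in 2, with a summed intensity of 382 in congenic and 374 in control liver, and endothelial markers were higher in 0 of 10 and lower in 1, with 3953 in congenic and 3702 in control liver. The extremes of the erythroid list were Ermap (-0.75) and Klf1 (0.88), and those of the endothelial list were Lyve1 (-0.64) and Cdh5 (0.53). These counts rest on the brightest probe set of each gene. A second expressed probe set was past 1.5-fold for Cdh5 (1.16) and for erythroid Slc4a1 (1.01, beside 0.43). That of Lyve1 was within 1.5-fold (-0.52).

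**Figure D3:**
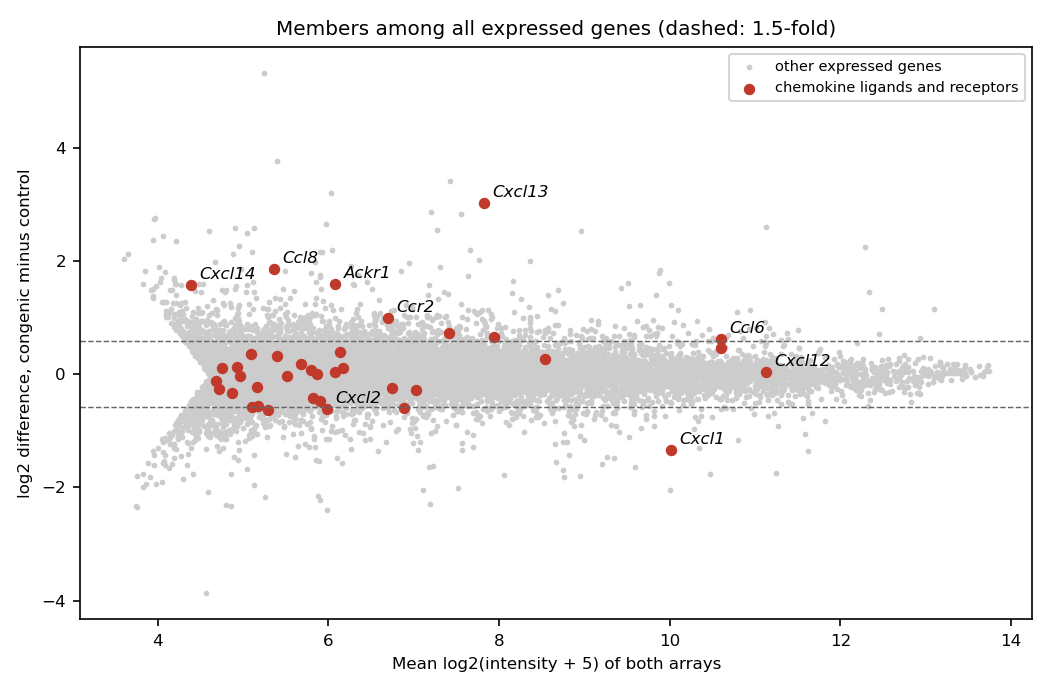
The log2 difference, congenic minus control, against mean log2(intensity + 5) for the expressed genes, with the 37 members in red and 1.5-fold as dashed lines. Cxcl13 (3.03) stands at the upper edge of the cloud, Ccl8 (1.86), Ackr1 (1.59) and Cxcl14 (1.58) above most genes of their level, and Cxcl1 (-1.34) below most genes of its level.

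Chromosome 1 carries the Bglu3 locus and 5 members, in the order Cxcr2, Ccl20, Ackr3, Cxcr4 and Ackr1. Ackr1 was the one past 1.5-fold. Marker and pathway genes named in this report that also lie on chromosome 1 are Marco (1.85), Rgs1 (1.49), Rgs5 (1.14), Des (-0.16), Selp (-0.42) and Cd247 (-0.73). The part of the donor stretch in their values was not tested. Of the 732 expressed genes of chromosome 1, 9.84% were higher and 6.28% lower by 1.5-fold or more. The expressed gene before Ackr1 in gene order is Apcs, the serum amyloid P component of the acute phase, which read 8614 in congenic and 3122 in control liver (1.46). The expressed gene after it, the adhesion molecule gene Cadm3, read 48.5 in congenic and 70.7 in control liver (-0.50). Next come Aim2, a DNA sensor of the p200 family (0.53), and Ifi213, of the same family, at 5.34 in congenic and 32.2 in control liver (-1.85). Ifi209 (0.18) follows, and before Apcs lie Crp (-0.28), Dusp23 (-0.62) and Slamf8 (-0.53). These neighbours of Ackr1 differed in both directions, and a regional effect was not tested.

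Elsewhere the members sit in clusters, taken here as members with at most 3 measured genes between them. In the chromosome 5 cluster of Cxcl5, Cxcl3, Cxcl15, Cxcl1 and Cxcl2, the expressed genes Cxcl1 and Cxcl2 were both lower. The other 3 were not expressed, so no direction is read from them. Cxcl9, Cxcl10 and Cxcl11 followed 15 measured genes on. Cxcl13 lies a further 13 measured genes along the same chromosome and differed the other way from Cxcl1 and Cxcl2. On chromosome 11 the cluster of Ccl5, Ccl9, Ccl6, Ccl3 and Ccl4 held positive differences alone, from 0.08 to 0.66, all of them expressed. Of the 1029 expressed genes of this chromosome, 576 had a positive difference. The other chromosome 11 cluster was mixed, since Ccl8 (1.86) lies in it with Ccl7 (-0.62) and the level genes Ccl2 and Ccl12. The chromosome 9 receptor cluster ran from Ccr9 to Ccr2. Of its 6 members Ccr9, Ccr1 and Ccr2 were expressed, and Ccr1l1 and Ccr3 had control readings of 1 and 1.04, so no difference is read from them.

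**Figure D4:**
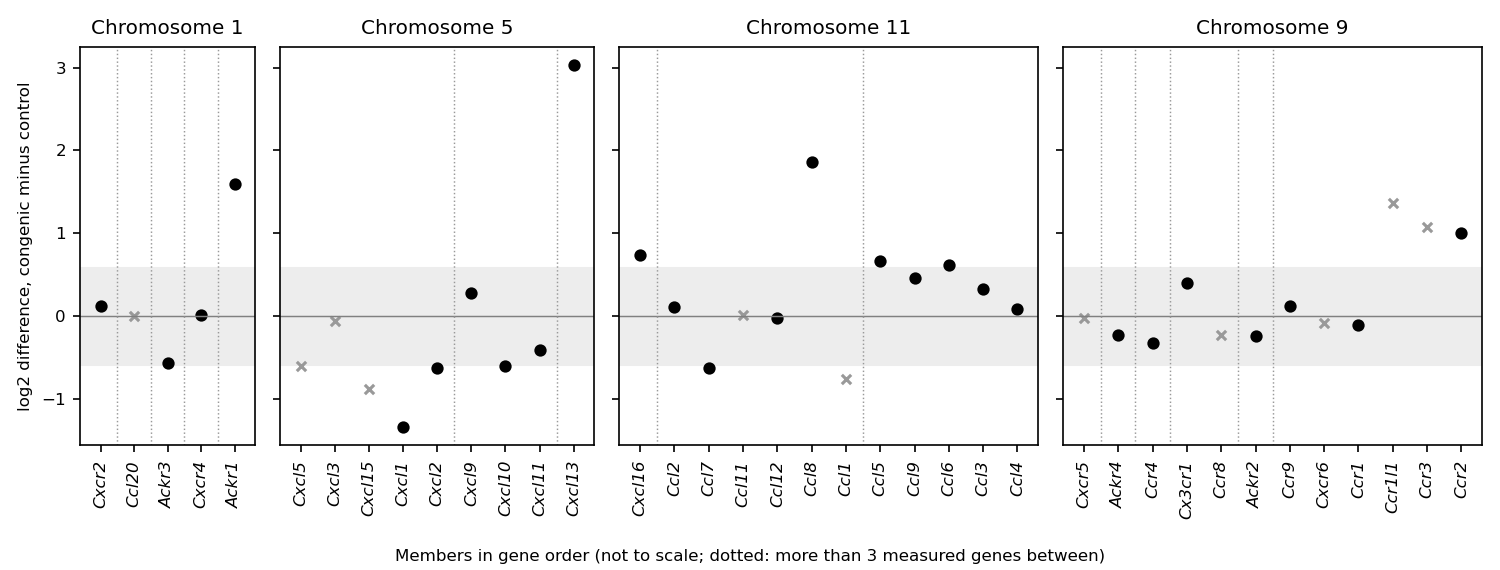
The log2 difference, congenic minus control, of members in gene order on chromosomes 1, 5, 11 and 9, with points for expressed genes, crosses for genes below the expression limit, the grey band for 1.5-fold and dotted lines where more than 3 measured genes lie between members. Ccl24 on chromosome 5 and Ccr7 and Ccr10 on chromosome 11, which lie apart from the clusters, are not drawn. Ackr1 (1.59) ends the chromosome 1 panel, and Cxcl1 (-1.34) and Cxcl13 (3.03) are the extremes of the chromosome 5 panel.

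Genes of the chemokine system outside the naming rule were read from fixed lists. Of the 8 expressed chemokine-like genes with other names, 2 were higher by 1.5-fold or more and 0 lower. These 2 were platelet chemokines, Ppbp at 132 in congenic and 40.6 in control liver (1.58) and Pf4 at 309 in congenic and 154 in control liver (0.98). The lowest were Ccrl2, a receptor-like protein that presents chemerin, at 88.4 in congenic and 130.1 in control liver (-0.53), and Pitpnm3 (-0.22). The platelet list, to which Ppbp and Pf4 also belong, was higher in 3 of 5 genes and lower in none, with Itga2b, the platelet integrin chain, lowest at -0.02, and summed to 585 in congenic and 323 in control liver. Of its 4 genes at or above the limit on both arrays 2 were higher, and these were Ppbp and Pf4 themselves. Gp1bb (0.19) and Itga2b were within 1.5-fold. The remaining higher gene, Gp9 (0.83), counted as expressed through the congenic array alone.

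Receptor signalling and migration genes were higher in 6 of 22 expressed genes and lower in none, with a median of 0.40 beside 0.04 for all genes. Rgs1, which shortens chemokine receptor signals in lymphocytes, read 687 in congenic and 241 in control liver (1.49), and Fgr, a Src family kinase of myeloid cells, 186 in congenic and 78.7 in control liver (1.19). The lowest were the G protein subunit Gnai3 (-0.15) and the kinase subunit Pik3cg (-0.08). Adhesion and capture genes were higher in 4 of 12 and lower in none, with a median of 0.36. The leukocyte integrin chains Itgal and Itga4 led at 306 and 145 in congenic and 143 and 68.7 in control liver (1.08 and 1.02), while Madcam1 and Selp, which endothelium displays, were lowest (-0.55 and -0.42). The second expressed probe set of Selp differed by -0.96, past 1.5-fold, so none lower holds for brightest probe sets only. Most genes of both lists that were higher are leukocyte genes, and the part of the leukocyte markers in them was not tested.

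Genes that present or cleave chemokines had a median of -0.02 over 13 expressed genes, with 2 higher and 1 lower. Syndecans carry heparan sulfate, on which chemokines are held, and they split, with Sdc3 at 728 in congenic and 423 in control liver (0.77) and Sdc4 at 2567 in congenic and 4101 in control liver (-0.67). Ctsg, a neutrophil protease, was the second highest (0.64) and Mmp9, a gelatinase, the second lowest (-0.31). Among 16 expressed genes of cytokine and NF-kB signalling that induce chemokines, 3 were higher and 0 lower, with a median of 0.20. Ltb, the lymphotoxin chain that induces Cxcl13 in lymphoid stroma, read 81.7 in congenic and 37.1 in control liver (1.04), and Ifng, interferon gamma, 22.7 in congenic and 13.0 in control liver (0.62). Ifng counted as expressed through the congenic array alone, and of the 15 genes on the limit or above it on both arrays 2 were higher and 0 lower. Relb, an NF-kB subunit of the lymphotoxin pathway, was lowest at 33.3 in congenic and 47.8 in control liver (-0.46), followed by Tlr2 (-0.09).

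**Figure D5:**
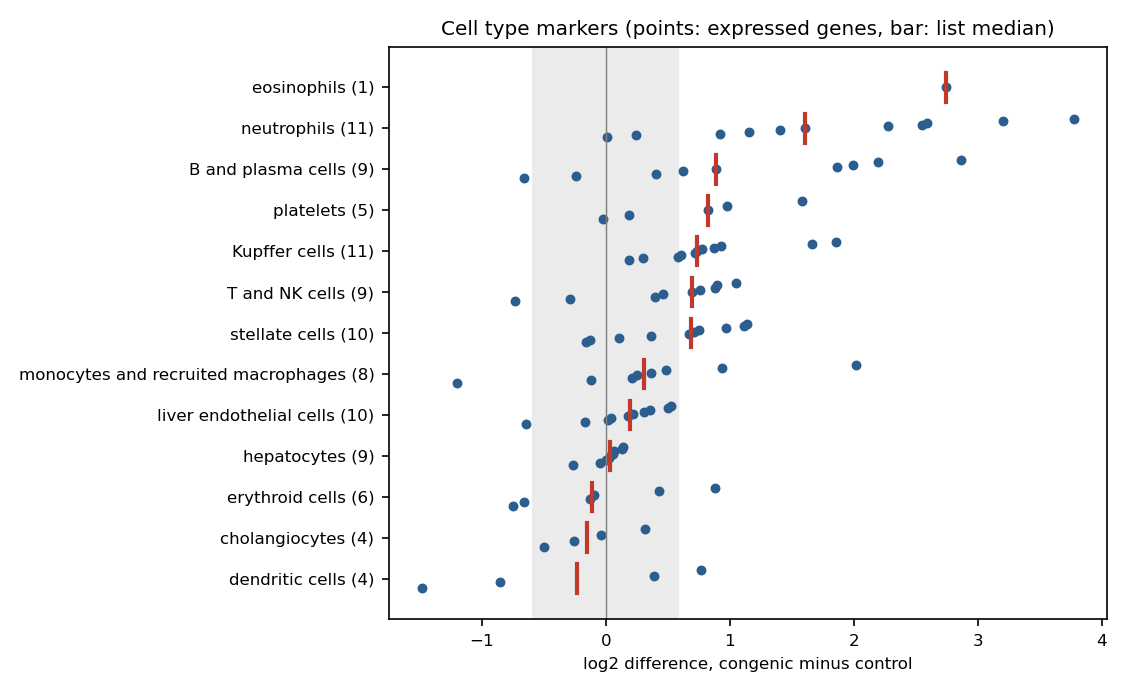
The log2 difference, congenic minus control, of expressed cell type markers, with the number of expressed genes in brackets, each point 1 gene, red bars for list medians and the grey band for 1.5-fold. The medians of neutrophil (1.61), B and plasma cell (0.89), platelet (0.83), Kupffer cell (0.74), T and NK cell (0.70) and stellate cell markers (0.69) lie right of the band, as does the 1 eosinophil marker (2.74), and that of hepatocyte markers (0.03) lies near 0. Over genes that reached the limit on both arrays, the platelet median (0.58) and the T and NK cell median (0.58) lie within the band. The eosinophil marker reached it on the congenic array alone.

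Stellate cell markers were higher in 6 of 10 and lower in none, with a median of 0.69, from Des, desmin (-0.16), to Rgs5 (1.14), and summed to 9311 in congenic and 7086 in control liver. Dendritic cell markers had 1 of 4 expressed genes higher and 2 lower, between Cd209a (-1.49) and Itgae (0.77), each above the limit on 1 array alone, and summed to 143 in congenic and 163 in control liver. Cholangiocyte markers had none of 4 past 1.5-fold by brightest probe set, between Sox9 (-0.50) and Krt7 (0.31), and summed to 143 in congenic and 162 in control liver. The other expressed probe set of Sox9 differed by -0.68, past 1.5-fold. Of 4 eosinophil markers 1 was expressed, Prg2, at 35.2 in congenic and the repeated low value of 1 in control liver (2.74), where Epx was at 1 too.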

How the data were processed

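Liver RNA (8 µg per array, per the labels' protocols) was hybridised to Affymetrix arrays, 1 per group. The deposited table gives 1 linear intensity for each of 45101 probe sets, and the sources used here do not give how the authors summarized and scaled the probes. The number of arrays limits the precision. Array medians were 19.3 in congenic and 19.7 in control liver, and the deposited intensities were used unscaled. Genes were named from probe sets with 1 symbol in the platform annotation (34945), leaving out 932 with several, 9160 with none and 64 controls. Gene order came from RefSeq on GRCm38.p6, for 34741 of these probe sets. The build of the array annotation is not stated, so the positions given are those of the RefSeq promoter windows on GRCm38.p6 and not of probe sets.

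The brightest probe set had the highest mean log2(intensity + 5). Computation used Python 3.11.15, pandas 2.3.3, numpy 2.4.6 and, for the loess trend, statsmodels 0.14.6, and the procedure was tested on simulated data. Every expressed member was named, with the 2 highest and 2 lowest genes of each pathway list and the highest and lowest of each marker list. Members, lists, motifs and genes shown with sequence were chosen with earlier results of these data known, the erythroid list last. Apcs, Cadm3, Aim2, Ifi213 and other neighbours of Ackr1 were named after their values were seen. So were Lcn2, Slc4a1, Ltf, Mpo, Prtn3 and albumin. Of 207 genes on the pathway and marker lists, 185 had a single-symbol probe set. Chemokine genes read by shared probe sets alone are not analysed by gene here.

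The results were recomputed with quantile normalization, median centring, a loess trend (span 0.3) removed, a pseudocount of 20 or 1, no expression filter, the 75th percentile or the 50th on both arrays as filter, the mean of expressed probe sets, plain _at probe sets, and 2-fold for 1.5-fold.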

Additional observations from a re-analysis of the deposited data

Results flagged for a closer look

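Probe set 1419426_s_at was left out of the comparison because its annotation joins 9 symbols, Ccl21 genes among them, and no single gene can be named from it. It read 130.3 in congenic and 81.9 in control liver (log2 difference 0.64), so its signal stood above that of the control array by more than 1.5-fold. The other 3 such probe sets differed by 0.05, -0.05 and -0.30.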

How the results depend on the processing

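No paired analysis was possible because each group has 1 array, and no array could be left out. The number of members higher by 1.5-fold or more was 8 and ran from 6 to 10 under the alternatives other than a 2-fold limit, which gave 5. The number lower was 4, and it was 1 with a 2-fold limit, 1 with a pseudocount of 20, 2 with the 75th percentile filter and 7 with no filter. Of all genes, 1.45%, 2.77%, 2.85% and 7.98% were lower under these settings in that order, against 5.23%, and from 4.34% to 8.67% were higher under settings other than the 2-fold limit. With the 75th percentile filter, 13 members stayed, and the median difference was 0.46 for members and 1.001 for receptors, against 0.04 and 0.02. The median of all genes under this filter was 0.05. The receptors that stayed were Ackr1 (1.59), Ccr2 (1.001) and Ackr2 (-0.24), so the receptor median is the value of the brightest Ccr2 probe set. Of 12 members past 1.5-fold none changed sign, and Cxcl13 (2.81 to 3.10), Ccl8 (1.36 to 2.08), Ackr1 (1.30 to 1.70), Cxcl14 (0.92 to 1.98), Ccl5 (0.60 to 0.68), Ccl6 (0.61 to 0.64) and Cxcl1 (-1.36 to -1.30) stayed past it wherever they had a value. Ccl7, Cxcl2 and Cxcl10 came within it with a pseudocount of 20, Cxcl10 also after median centring, Ccr2 with the mean of its probe sets, and Cxcl16 with that mean (0.58) or with plain _at probe sets (0.42). Of 338 recomputed member differences, 332 moved by less than the probe set scatter of 0.34, but many of these could not move. Filters only choose which genes stay, so the values under the both-arrays, 75th percentile and no-filter settings (34, 13 and 37) were fixed in advance. The mean changes only members with several expressed probe sets. Plain _at probe sets change only members whose brightest probe set is of another kind. A pseudocount of 20 shrinks differences of dim genes by construction, and the 75th percentile filter removes dim members, and other causes were not tested. Low signal limits 15 members that were not expressed.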
